A study of Mus musculus with 5 samples.

Results

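The genes of 6 adhesion molecules of the immunoglobulin superfamily (Icam1, Icam4, Icam5, Icam2, Vcam1 and Alcam) were examined for NKX2-1 binding in the whole lung of the mouse. They are 6 of 21631 genes that code for proteins, on the autosomes and chromosome X, and they were chosen by the peaks measured near them, so that their peak counts and fold values are a description and were not tested. A peak counted for a gene when its summit lay inside the gene or within 20 kb of it, and peaks of different antibodies that overlapped by at least 1 bp were merged into a region. This gave 46 regions of 68919 in the whole series. Chromatin immunoprecipitation followed by sequencing (ChIP-seq) had been carried out on the lungs of postnatal day 10 mice, all wild type, with 4 antibodies against NKX2-1, named Abcam133737, Millipore07-601, Abcam76013 and Abcam133638, each set against 1 input library. Each antibody had 1 library, lungs were fixed with formalin before nuclei were isolated, and the sonicated chromatin was pooled. The libraries may therefore share their chromatin, and a difference between antibodies has no replicate check. Whole lung mixes epithelial, endothelial, immune and mesenchymal nuclei, so that the cell type in which a region was bound, and the share of cells with it, cannot be told apart in these values.

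NKX2-1 is a homeodomain transcription factor of the lung and thyroid epithelium that is needed for lung development and is kept in the alveolar epithelium after birth. ICAM proteins are cell surface proteins that bind integrins of leukocytes. ICAM1 is induced by inflammatory cytokines on many cells, and in the lung it is found on endothelium and on the alveolar epithelium, where it marks the thin alveolar type 1 cells. ICAM4 is best known from red blood cells, ICAM5 from neurons, and ICAM2 from endothelium and platelets. VCAM1 holds leukocytes on activated endothelium through an integrin of another class, and ALCAM joins cells through contacts with itself and binds CD6 of T cells.

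The sequences before the starts of the 4 genes found in the RefSeq promoter table of GRCm38 (the mm10 build) are given here because they place the peaks at the Icam1 and Alcam starts against the first base of each gene. Each run is the 250 bases before the transcription start, 5′ to 3′ on the strand of the gene, and capitals mark the bases that lay under peaks of all 4 antibodies. The Icam1 run is chr9:21015690-21015939 on the plus strand, Icam4 is chr9:21029182-21029431 on the plus strand, Icam5 is chr9:21031788-21032037 on the plus strand and Alcam is chr16:52453082-52453331 on the minus strand.
Icam1: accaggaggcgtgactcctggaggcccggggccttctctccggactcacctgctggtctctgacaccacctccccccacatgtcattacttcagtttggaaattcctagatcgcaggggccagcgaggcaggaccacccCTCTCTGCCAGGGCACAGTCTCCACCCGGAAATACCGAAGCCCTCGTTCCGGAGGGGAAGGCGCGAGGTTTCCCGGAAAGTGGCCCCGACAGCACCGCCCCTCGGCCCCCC
Icam4: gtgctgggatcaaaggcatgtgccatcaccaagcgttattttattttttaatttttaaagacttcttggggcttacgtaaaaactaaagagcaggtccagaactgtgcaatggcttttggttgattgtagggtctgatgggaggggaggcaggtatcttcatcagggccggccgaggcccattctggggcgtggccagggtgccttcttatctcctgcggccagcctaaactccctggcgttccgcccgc
Icam5: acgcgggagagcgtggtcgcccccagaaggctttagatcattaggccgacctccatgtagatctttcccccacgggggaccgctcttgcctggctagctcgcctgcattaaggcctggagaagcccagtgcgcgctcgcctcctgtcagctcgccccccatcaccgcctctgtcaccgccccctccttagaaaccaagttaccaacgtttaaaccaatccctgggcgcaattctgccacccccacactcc
Alcam: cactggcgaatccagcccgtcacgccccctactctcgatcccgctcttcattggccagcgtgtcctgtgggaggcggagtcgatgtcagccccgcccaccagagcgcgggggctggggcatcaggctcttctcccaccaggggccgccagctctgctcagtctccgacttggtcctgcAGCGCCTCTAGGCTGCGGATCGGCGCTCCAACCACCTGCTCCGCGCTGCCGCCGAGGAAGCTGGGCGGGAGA
In the Icam1 run 111 bases, next to the start, were under peaks of all 4 antibodies, and in the Alcam run 72 bases, again next to the start. The Icam4 and Icam5 runs have no capitals.

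After the removal of duplicates the Abcam133737 library held 46547989 tags, Millipore07-601 held 43031331, Abcam76013 held 46472700 and Abcam133638 held 44777214. The peak lists held 40877, 57763, 41296 and 57891 peaks in that order, so Millipore07-601 and Abcam133638 gave the longer lists. The pileup of a peak is the number of tags stacked at its summit. Its fold is the authors' ratio of the pileup to a background, with 1 tag added to each. That background is a local level taken from the input or the genome-wide level of the antibody library. A region with a peak of all 4 antibodies is called shared, and its mean fold is the mean of its 4 values.

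Near the 6 genes 22 regions were shared, 4 had peaks of 3 antibodies, 9 of 2 and 11 of 1. Over the whole series 9284 of the 68919 regions had peaks of exactly 3 antibodies. Regions of 2 antibodies or of 1 were not counted over the whole series, so nothing is read from those counts. The shared regions were 47.8% of the 46, close to the 45.9% of all regions in the series. All 6 genes had at least 1 peak, of whichever antibody, within 20 kb, against 76.7% of all protein-coding genes. A shared region lay within 20 kb of 5 of the 6, against 64.8% of all genes, and Vcam1 was the gene without one. Inside the gene itself a shared region was found for 4 of the 6, namely Icam1, Icam4, Icam5 and Alcam, against 39.3% of all genes. Since the genes were chosen by these peaks, nothing is read from these counts. The genes differed widely among themselves. The Icam1, Icam4 and Icam5 cluster held 11 shared regions, Alcam 10, Icam2 1 and Vcam1 0.

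Icam1, Icam4 and Icam5 lie one after another on the plus strand of chromosome 9, from 21015940 to 21039036 (mm10), a span of 23.1 kb. Icam1 runs from 21015940 to 21028814, Icam4 from 21029432 to 21030596 and Icam5 from 21032038 to 21039036. The 3 genes share most of their surroundings, so that a region counted for 1 of them is usually counted for the others too. Of the 16 regions within 20 kb of the span, 11 were shared, where 45.9% of all regions in the series were. The 11 amount to 17.4 shared regions per 100 kb. The median over all genes was 1.80 per 100 kb. Counted gene by gene, Icam1 had 11 shared regions and Icam4 and Icam5 had 9 each, where the median gene had 1. Icam1 thus had more than 98.7% of all genes. The shared summits stretched over 36.7 kb with a median gap of 2.80 kb, and 8 of the 11 summits lay inside the span of the 3 genes.

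**Figure D1:**
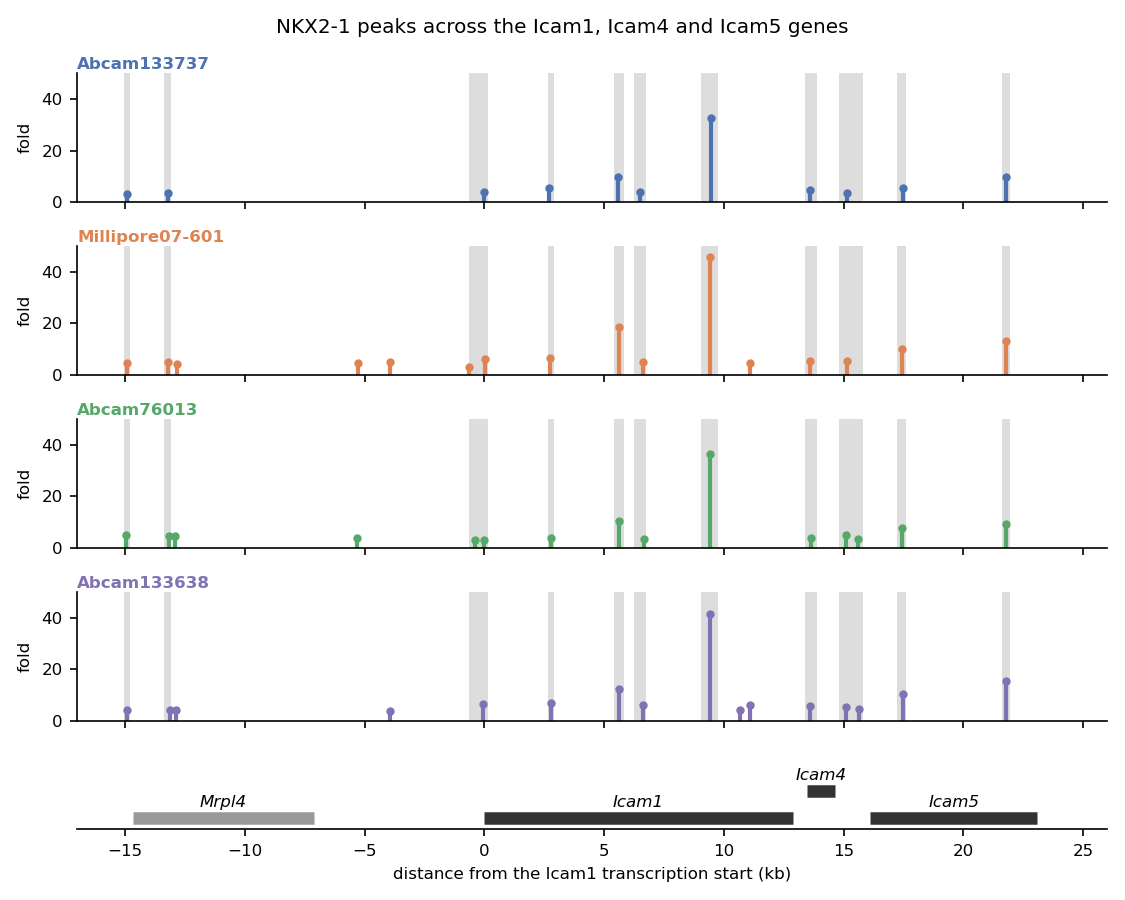
Fold enrichment of every peak (vertical axis, linear) against its distance from the Icam1 transcription start in kb (horizontal axis), 1 panel per antibody, with the genes drawn to scale at the bottom and grey bands over the regions shared by all 4 antibodies. The tallest peak is the same region inside Icam1 in all 4 panels, with folds of 32.7, 45.7, 36.3 and 41.2.

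The strongest region of the cluster was inside Icam1, 9.43 kb after the transcription start (chromosome 9, 21024976 to 21025705). Its pileup was 158 tags with Abcam133737, 215 with Millipore07-601, 178 with Abcam76013 and 190 with Abcam133638. The folds were 32.7, 45.7, 36.3 and 41.2 in the same order, with a mean of 39.0 and an SD over the 4 antibodies of 5.65. This region stood far above the rest of the cluster in all 4 libraries. It ranked 49th of the 31606 shared regions by mean fold and 81st by mean pileup, and its place in the 4 lists was 49, 61, 31 and 50. The 4 summits lay within 21 bp of each other, where the median shared region had a spread of 46 bp. The gap to the next region of the cluster was wide in each library. The strongest region exceeded the next highest shared region of the same library by 3.31 times in fold with Abcam133737, 2.45 times with Millipore07-601, 3.42 times with Abcam76013 and 2.65 times with Abcam133638. It alone carried 34.7% to 38.9% of the pileup summed over the shared regions of the cluster.

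The other regions inside Icam1 were lower. The highest of them, 5.61 kb after the start (21021355 to 21021787), had folds of 9.87 with Abcam133737, 18.7 with Millipore07-601, 10.6 with Abcam76013 and 12.3 with Abcam133638. Its mean fold of 12.9 was above that of 84.8% of the shared regions. A region at 2.75 kb (21018578 to 21018863) had folds of 5.56, 6.77, 4.06 and 6.90, and one at 6.62 kb (21022191 to 21022698) had folds of 4.12, 5.08, 3.65 and 6.03, in the same order of antibodies. Both lay below the median of 7.14 over all shared regions. Further into the gene, at 10.7 kb and 11.1 kb, regions had peaks of Abcam133638 alone (fold 4.31) and of Millipore07-601 (fold 4.65) and Abcam133638 (fold 6.25).

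The Icam1 start itself carried a weak, broad region (21015294 to 21016092). Its pileup was 18 tags with Abcam133737, 29 with Millipore07-601, 15 with Abcam76013 and 30 with Abcam133638, with folds of 3.91, 6.35, 3.25 and 6.68. In each library these folds were below those at 5.61 kb and 9.43 kb into the gene. The summits of the 4 antibodies lay within 52 bp of each other there, although Millipore07-601 and Abcam76013 each had a further peak upstream in the same region, that of Abcam76013 with the same fold. The 300-base promoter window (250 bases before the start and 50 after it) lay under peaks of all 4 antibodies for 148 bases.

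Icam4 has 1 shared region inside it, 0.11 kb after its start (21029321 to 21029814), where the folds were 4.73 with Abcam133737, 5.29 with Millipore07-601, 4.06 with Abcam76013 and 5.82 with Abcam133638. A second one (21030760 to 21031736) lies between Icam4 and Icam5, 0.47 kb past the end of Icam4 and 0.97 kb before the start of Icam5. Its folds were 3.54, 5.36, 5.07 and 5.17. Both regions were among the weaker shared regions, with mean folds of 4.98 and 4.79. In the second region Abcam76013 and Abcam133638 each had a further peak nearer to Icam5, with folds of 3.45 and 4.53. The promoter window of Icam4 was under peaks of all 4 antibodies only for its last 30 bases, which follow the start.

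Icam5 held 2 shared regions inside it. The stronger, 5.68 kb after its start (21037569 to 21037896), had pileups of 47 tags with Abcam133737, 61 with Millipore07-601, 45 with Abcam76013 and 71 with Abcam133638. The folds were 9.88, 13.1, 9.34 and 15.5, with a mean of 12.0 and summits within 13 bp. Nearer to the start, at 1.37 kb (21033160 to 21033546), the folds were 5.56, 9.94, 7.71 and 10.6. In both regions Millipore07-601 and Abcam133638 were above the other antibodies. No peak of any antibody overlapped the promoter window of Icam5, which begins at 21031788. The shared region between Icam4 and Icam5 ended just before it, at 21031736.

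Left of Icam1, 2 shared regions lay 14.9 kb and 13.2 kb before its start, at 0.24 kb from and inside Mrpl4, the gene of a mitochondrial ribosomal protein. Their mean folds were 4.30 and 4.41. Both are nearer to Mrpl4 than to any Icam gene and were counted for Icam1 by the distance limit. A further region inside Mrpl4, 12.9 kb before the Icam1 start, had peaks of 3 antibodies and a mean fold of 4.26. Between Mrpl4 and the Icam1 start, regions at 5.29 kb and 3.94 kb before the start had peaks of 2 antibodies each. Their mean folds were 4.31 and 4.37, and they lay 1.81 kb and 3.16 kb from Mrpl4, again nearer to it than to Icam1. The region nearest outside the distance limit was 20.6 kb from the cluster, had peaks of 3 antibodies and a mean fold of 4.30. A little further out, 22.6 kb from Icam1 and 7.95 kb from Mrpl4 (20993039 to 20993882), a shared region had a mean fold of 38.3 with values from 32.4 to 47.8 over the 4 antibodies. It falls outside the rule by distance and was named after its value had been seen. On the other side, the nearest region lay 34.5 kb past Icam5, with peaks of 2 antibodies.

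Icam2 lies apart from the cluster, on chromosome 11 (106377656 to 106388139), and no region had its summit inside it. The 1 shared region (106374126 to 106374534) was 3.27 kb from the gene, with its summit in the long noncoding RNA gene LOC108167929 and 0.38 kb from Prr29, the gene of a proline-rich protein. Its pileup was 19 tags with Abcam133737, 32 with Millipore07-601, 20 with Abcam76013 and 34 with Abcam133638, with folds of 4.12, 6.98, 4.26 and 7.54. The antibodies with longer lists were higher, and the mean fold of 5.73 was above that of 29.0% of shared regions. This region is nearer to Prr29 than to Icam2. On the same side, a region inside Prr29 (106374712 to 106374891) lay 2.87 kb from Icam2. It had a peak of Abcam133638 alone, with a fold of 3.88. On the other side of Icam2, at 3.87 kb (106391910 to 106392133), Millipore07-601, Abcam76013 and Abcam133638 had folds of 5.50, 4.67 and 6.47, and Abcam133737 had no peak. Outside the limit, a shared region at 30.7 kb had a mean fold of 4.85, and another inside Ern1, a gene of the unfolded protein response, at 38.5 kb (106426382 to 106426942), had a mean fold of 25.4.

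Vcam1 (chromosome 3, 116110020 to 116129688) had the fewest peaks of the 6 genes. A single region lay within 20 kb (116142011 to 116142206), 12.4 kb from the gene and inside the long noncoding RNA gene 5330425B07Rik. It had a fold of 3.71 with Abcam133737 and 3.88 with Abcam133638, with 17 tags in each library, and no peak with Millipore07-601 or Abcam76013. Both folds were below the median of their lists, 5.35 with Abcam133737 and 5.82 with Abcam133638. The next regions were 84.1 kb away on one side, shared and with a mean fold of 13.6, and 145.5 kb on the other, with peaks of 3 antibodies. A missing peak says only that no interval passed the authors' q cutoff of 0.05 at this depth.

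Alcam is a long gene (chromosome 16, 52248996 to 52453081, minus strand, 204 kb), and its 26 regions were spread from 19.9 kb before its start to 144.7 kb into it. No region followed from there to the end of the gene. Of the 26, 10 were shared, 2 had peaks of 3 antibodies, 5 of 2 and 9 of 1. Over the whole series 45.9% of regions were shared. By number Alcam had more shared regions than 98.2% of all genes. Per length it had 4.10 shared regions per 100 kb, more than 74.2% of genes, and so stood much closer to the middle than Icam1.

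**Figure D2:**
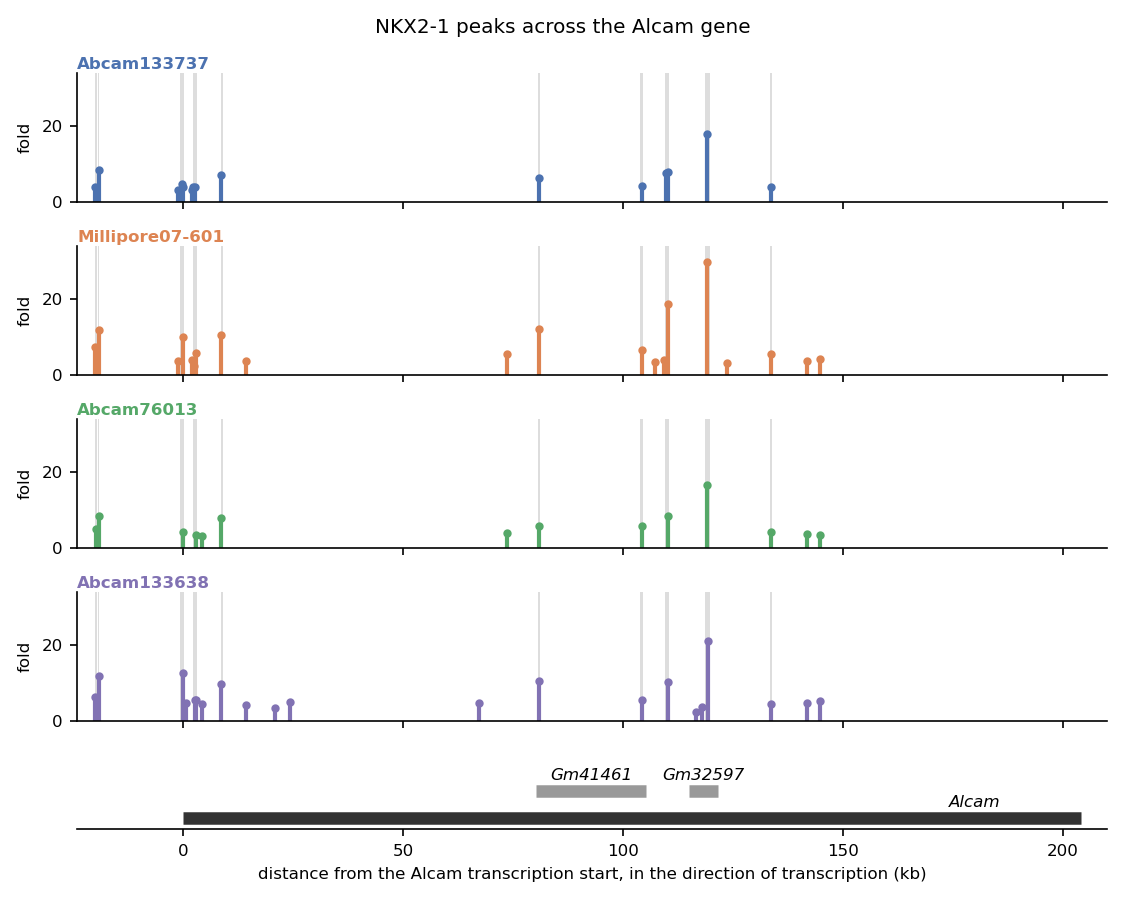
Fold enrichment of every peak (vertical axis, linear) against its distance in kb from the Alcam transcription start in the direction of transcription (horizontal axis), 1 panel per antibody, with Alcam and 2 long noncoding RNA genes drawn to scale and grey bands over shared regions. Peaks gather at the start and between 67.2 and 144.7 kb into the gene, and the tallest in each panel is at 119 kb, with folds of 18.1, 29.8, 16.6 and 20.9.

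The region of highest fold in Alcam was deep in the gene, 119 kb after the start (52333228 to 52334438), where the long noncoding RNA gene Gm32597 also lies. Its pileup was 87 tags with Abcam133737, 140 with Millipore07-601, 81 with Abcam76013 and 96 with Abcam133638. The folds of 18.1, 29.8, 16.6 and 20.9 gave a mean of 21.4 and an SD over antibodies of 5.91, and the rank was 1194 of 31606. Millipore07-601 stood apart as the highest. The 4 summits were spread over 162 bp, more than the 129 bp that 90% of shared regions stayed under.

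Ranking by pileup gave another region first. At 110 kb (52342685 to 52343559) the pileup was 113 tags with Abcam133737, 169 with Millipore07-601, 119 with Abcam76013 and 139 with Abcam133638, the highest of Alcam in all 4 libraries. The folds were 8.08, 18.7, 8.52 and 10.3, over a local input background of 13.1, 8.08, 13.1 and 12.6 tags, 2.17 to 3.46 times the genome-wide level. Each input tag counted as 4.37, 4.04, 4.36 and 4.20 tags after scaling, in the same order of antibodies. The background at 110 kb, and its difference between antibodies, thus rest on very few input tags. By mean pileup this region exceeded 98.5% of the shared regions and by mean fold 79.8%. Its mean background of 11.7 tags was above that of 99.3% of shared regions, whose median was 3.79 tags. The region at 104 kb (52348635 to 52349166, in Gm41461) also had a raised background of 6.39 to 6.89 tags, with folds of 4.37, 6.63, 5.83 and 5.41. A region of Abcam133638 alone at 116.6 kb (52336357 to 52336508) had a background of 8.41 tags, again from very few input tags, and a fold of 2.45. Whether the raised input level contributes to the pileups of these regions was not tested.

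**Figure D3:**
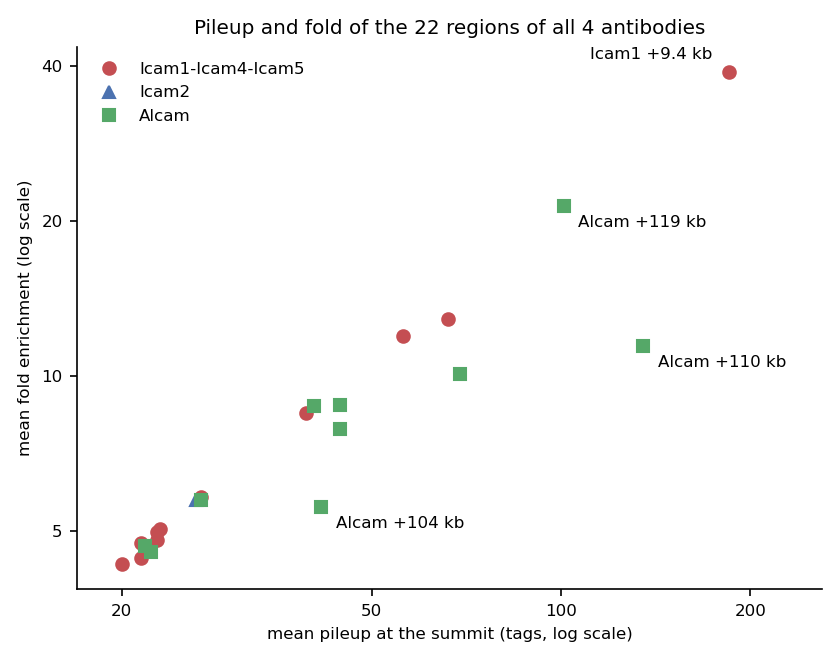
Mean fold against mean pileup in tags for the 22 shared regions, both on log scales and averaged over the 4 antibodies, with the locus shown by colour and marker. Most points follow 1 line. The Alcam regions at 110 and 104 kb, at 19.1 kb before the start and at the start lie below it, with the raised backgrounds given in the text.

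The start of Alcam (52452770 to 52453685) had folds of 4.84 with Abcam133737, 9.92 with Millipore07-601, 4.11 with Abcam76013 and 12.7 with Abcam133638, with pileups of 25, 49, 39 and 65 tags. Here the antibodies of the longer lists were above the others. Abcam133737 had a second peak in the region, with 37 tags and a fold of 3.90, and its summit lay within 83 bp of those of the other antibodies. At these nearby summits the local background was 8.74 tags with Abcam133737 and 8.72 with Abcam76013, and 4.04 with Millipore07-601 and 4.20 with Abcam133638. Each input tag counted as 4.37, 4.36, 4.04 and 4.20 tags after scaling, in that order, so this difference rests on very few input tags. The region at 80.9 kb (52371909 to 52372435) had folds of 6.38, 12.1, 5.89 and 10.6 with summits within 9 bp, the smallest spread of the 22 shared regions. At 8.73 kb (52443881 to 52444510) the folds were 7.08, 10.6, 7.83 and 9.61. Before the start, at 19.1 kb (52472044 to 52472325), they were 8.46, 11.8, 8.33 and 11.7. A neighbour at 19.9 kb, just inside the distance limit, had a mean fold of 5.74, and the nearest region outside on that side was 83.4 kb away with a mean fold of 13.4. The remaining 2 shared regions, at 2.99 and 134 kb into the gene, had mean folds of 4.67 and 4.55.

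**Figure D4:**
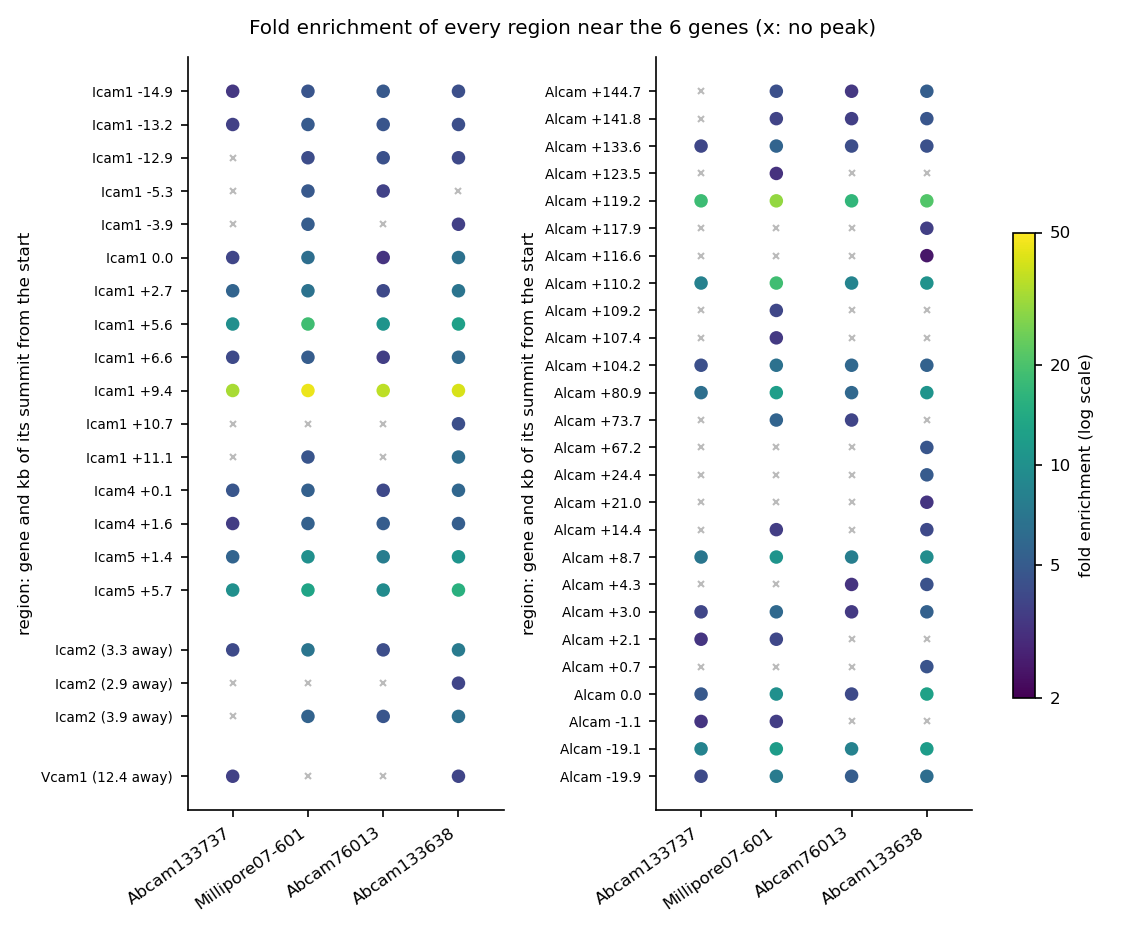
Fold enrichment (colour, log scale) of the 46 regions by antibody (columns), with the regions in gene order and named by the nearest gene and the kb of their summit from its start, or from the gene where no start is in the promoter table. A cross marks an antibody without a peak. Crosses are most frequent for Abcam133737, which has a peak in 25 of the 46 regions.

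The antibodies differed in how many of the 46 regions they called. Millipore07-601 had a peak in 36 and Abcam133638 in 39, while Abcam133737 had one in 25 and Abcam76013 in 29. These are 78.3%, 84.8%, 54.3% and 63.0% of the regions, where the same antibodies had a peak in 82.3%, 82.3%, 57.3% and 58.0% of all regions. No region near the 6 genes was called by Abcam133737 alone or by Abcam76013 alone, 8 were called by Abcam133638 alone and 3 by Millipore07-601 alone. Calls by 1 antibody alone were not counted over the whole series, so nothing about these genes is read from them. All 4 of the regions with exactly 3 antibodies lacked Abcam133737, and over the whole series 46.5% of such regions did. Shared regions had the highest median fold, with each region averaged over the antibodies that had a peak in it. A region near the calling cutoff is easily missed by some lists, so nothing is read from this order. The median of the mean folds was 5.78 over the shared regions, 4.28 over those of 3 antibodies, 3.89 over those of 2 and 3.88 over those of 1.

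Within the shared regions the same antibodies were the higher. The ratio of the depth-corrected pileup (pileup divided by the filtered tags of the library), averaged over Millipore07-601 and Abcam133638, to that averaged over Abcam133737 and Abcam76013, was above 1 in 22 of 22 regions, and in 98.0% of all 31606 shared regions. Its median was 1.46 near the 6 genes, from 1.06 to 1.90, and 1.41 over all shared regions. The lowest ratios, 1.06, were at the 2 regions by Mrpl4, and the strongest Icam1 region had 1.28. The Icam1 start and the Alcam region at 80.9 kb were at the upper end, with 1.89 and 1.90. The Alcam start had 1.88 with the peak of highest fold of each antibody and 1.59 with the peaks whose summits lay closest together.

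Most folds near these genes are a pileup over a constant. The background equalled the genome-wide level of the library, within 2%, for 80 of 129 antibody values (62.0%). This share was 77.8% in the Icam1, Icam4 and Icam5 cluster, 43.1% in Alcam, and all values at Icam2 and Vcam1. At the strongest Icam1 region it held for all 4 antibodies, at 3.86, 3.73, 3.93 and 3.64 tags, so its pileup and its fold carry the same information.

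**Figure D5:**
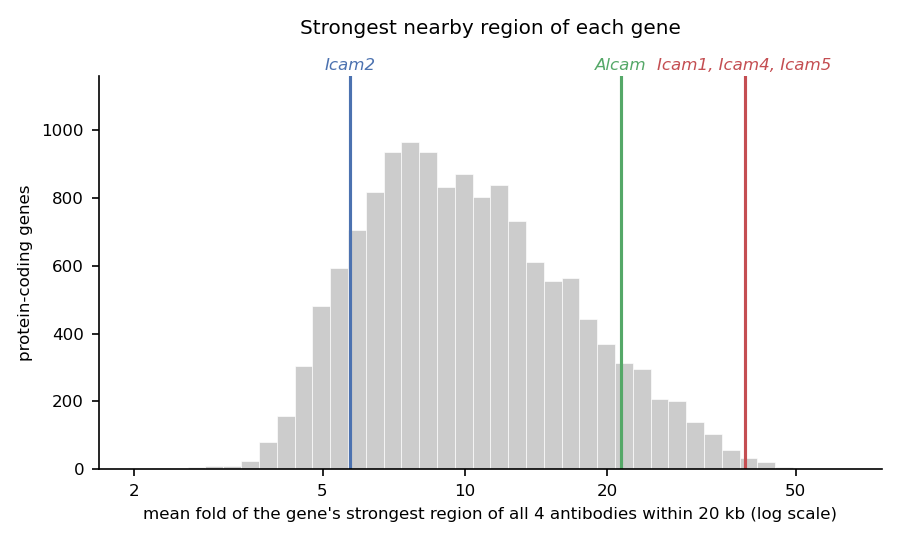
Number of protein-coding genes (vertical axis) by the mean fold of the strongest shared region within 20 kb (horizontal axis, log scale), for the 14023 genes that have one. Coloured lines mark Icam2 at 5.73, Alcam at 21.4 and the region shared by Icam1, Icam4 and Icam5 at 39.0, against a median of 9.65 over the genes.

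The strongest region of Icam1, which is also the strongest within 20 kb of Icam4 and Icam5, placed these genes at rank 51 of the 14023 genes with a shared region. The median gene had a best mean fold of 9.65, 90% of genes were below 20.7 and 99% below 34.5. Alcam, with 21.4, ranked 1263 and lay just past the 90% mark, and Icam2, with 5.73, ranked 12250. By the pattern of log2 fold over the 4 antibodies, the protein-coding genes whose best region was most like that of Icam1 were Tectb, a gene of a tectorial membrane protein of the inner ear, at a Euclidean distance of 0.08, and Serpinb6b, a gene of a serine protease inhibitor, at 0.10. For Icam2 they were Hormad1, a gene of meiotic chromosomes, at 0.09, and Casp8, the gene of an apoptotic caspase, at 0.10. For Alcam they were Rapgef1, a gene of an exchange factor of small GTPases, at 0.08, and Tspan9, a tetraspanin gene, at 0.09. The likeness is over 4 libraries and includes the height of a region.

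Among the 4 promoter windows, those of Icam1, Icam4 and Alcam were under peaks of all 4 antibodies at 1 base or more, and that of Icam5 was not. Of the genes in the promoter table, 29.8% had a window that a peak of each of the 4 antibodies overlapped, not necessarily at a common base. By this looser measure the same 3 of the 4 genes had one. The windows were searched on both strands for CACTCAAG and its part CTCAAG, forms of the NKX2-1 motif, for GGAATG, the core of the TEAD motif, and for GGAAATTCC, a form of the NF-kB motif. The only match was GGAAATTCC in Icam1, at positions -153 to -145 from the start (chromosome 9, 21015787 to 21015795), which lies in the lower-case part of the sequence printed above and fully under the peak of 1 antibody. Of the 21045 promoter windows in the table, 0.361% held GGAAATTCC, 1.15% CACTCAAG, 15.0% CTCAAG and 13.5% GGAATG. The sequences under the strongest regions of Icam1 and Alcam, which lie far from these windows, were not analysed here.

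Genes that act with these adhesion molecules were read from 5 lists with 61 genes, all found in the annotation, and each count is of genes that have a shared region no more than 20 kb away, which 64.8% of all genes have. Of the 9 integrin and CD6 receptor genes, the partners of the ICAM, VCAM and ALCAM proteins, 6 had a shared region at that distance, or 66.7%. Itga9, an integrin subunit that pairs with Itgb1 and can bind VCAM1, had 19 shared regions, the strongest inside the gene with a mean fold of 23.5. Itgb1, the common beta subunit of many integrins, had a mean fold of 13.3 at 3.49 kb. Itgam and Itgax, which code for integrin subunits of myeloid cells, had no peak of any antibody.

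Among the 11 endothelial and leukocyte adhesion genes 4 had a shared region, or 36.4%. Podxl, a sialomucin gene, and Esam, an endothelial junction gene, had mean folds of 18.6 at 1.15 kb and 18.5 at 1.18 kb. A peak of any antibody lay within 20 kb of 6 of the 11, against 76.7% of all protein-coding genes. The 5 without one included Sele, the gene of E-selectin, and Cdh5, the gene of VE-cadherin. This difference was not tested. The junctional genes of the immunoglobulin superfamily had one in 17 of 21, or 81.0%, led by Nectin3 with a mean fold of 34.1 at 9.59 kb and Bcam, a laminin receptor gene, with 24.2 at 8.32 kb. The linkers of adhesion molecules to actin had one in 7 of 8, or 87.5%. Msn (moesin) had a mean fold of 27.8 inside the gene and Ezr (ezrin) 27.2 at 15.8 kb. All 12 regulators of the cytokine response of adhesion genes had one. Irf1, an interferon-regulated transcription factor, had a mean fold of 26.3 at 7.96 kb. Ifngr1, a chain of the interferon gamma receptor, had 23.6 at 1.57 kb. The median best mean fold of the genes with a shared region was 11.8 for the receptors, 12.8 for the endothelial and leukocyte genes, 10.95 for the junctional genes, 18.2 for the linkers and 12.3 for the regulators, where that of all genes was 9.65. These are counts without a test, and long genes have more room for a region.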

How the data were processed

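NKX2-1 ChIP-seq of mouse lung was deposited as 1 peak table per antibody (4 tables). No table of the input was used here, and it entered through the authors' peak calling. The authors ran MACS 2.1.2 on each antibody library against the input, per the file headers, at a q cutoff of 0.05 and an effective genome size of 1.87 Gb, keeping 1 tag at a position and scaling the input up. The submitters' processing notes name mm10 as the build and Bowtie, SAMtools, Trimmomatic, FastQC, deepTools and MACS2 as tools. Each deposited line gives, per the file headers, the summit position, its pileup (a signal in tags), the fold (a ratio to the local background) and the -log10 of the p-value and of the q-value. The fold is the authors' value, was used only to describe and rank peaks, and rests on an input with fewer tags, scaled up by 4.04 to 4.37.

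Peaks were merged and counted with Python 3.11.15 and pandas 2.3.3, and the merging was tested on simulated peaks. The background was recovered from pileup and fold. Where an antibody had several peaks in a region, that of the highest fold was used. The summit of a region is the median of its antibodies' summits. Genes are those of RefSeq GRCm38.p6, given as start and end, so exons, introns and UTRs were not analysed here. Strands and starts come from the RefSeq promoter table, where 4 of the 6 genes were found.

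The 6 genes, the lists and the motifs were chosen with earlier results of these data known. By rule, the text names the 6 genes, nearer protein-coding neighbours, the 2 genes of highest mean fold and up to 2 without a peak of each list, and the 2 genes most alike in fold. Long noncoding RNA genes, and regions more than 20 kb away with their genes, were named after their values were seen. With 1 library per antibody no test was run and no p-value is given. Alternatives were other peak thresholds, overlaps, distances, gene assignments and each antibody left out.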

Additional observations from a re-analysis of the deposited data

How the results depend on the processing

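The number of shared regions near the 6 genes was 22. It was 9 with only peaks of a fold of at least 5, 5 with the 10000 peaks of highest fold of each list, and 13 with a reciprocal overlap of 50%. It was between 16 and 30 with the other thresholds, overlaps, distances and gene assignments, and 22 to 26 when each antibody was left out in turn. Of the 5 regions left among the strongest peaks, 3 were in the Icam1, Icam4 and Icam5 cluster, with mean folds of 12.9, 39.0 and 12.0, and 2 were in Alcam, with 21.4 and 10.1. The regions lost with the reciprocal overlap were not only those at the starts of Icam1 and Alcam. They included the shared region inside Icam4, the shared region near Icam2 and the Alcam region of highest pileup. The cause was not tested.

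A shared region was near 5 or 4 of the 6 genes in every setting run. Vcam1 had none in any of them, and Icam2 lost its region in the 5 settings with 4. The share of all genes was 64.8%, and it was 27.8% with the 10000 strongest peaks and 39.3% with regions inside the gene. It was 65.1% to 67.3% without 1 antibody and 50.0% to 74.6% in the others. The mean fold of the strongest Icam1 region was 39.0 in all settings that kept the 4 antibodies, and 36.7 to 41.1 without 1 of them.

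No paired analysis was possible because each antibody has 1 library and no test was run. The values are limited by 1 library per antibody, by pooled chromatin, and by an input that set no local level for most peaks. Distances were to gene ends, and a region near several genes counts for each.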
